A study of Rattus norvegicus with 25 samples.

Results

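The keratins described here are the main structural keratins of stratified epithelium, with a pair from simple epithelium: Krt4, Krt13, Krt5, Krt14, Krt15, Krt17, Krt1, Krt10, Krt7 and Krt19 of the rat. They were chosen by name, and their probes were found through the RefSeq accession that the scanner files give for each probe. Of these 10 genes, 9 had a named probe, with 1 probe on 2 spots each, among 12343 genes tested in all. Krt10 matched no probe through the table of names and was not analysed here.

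Keratins are intermediate filament proteins that assemble as pairs of a type I and a type II chain. In the esophagus, dividing basal cells carry Krt5 with Krt14 and Krt15, and cells that leave the basal layer switch to Krt4 with Krt13. Krt17 is a stress and wound keratin, Krt1 pairs with Krt10 in the suprabasal layers of skin, and Krt7 and Krt19 are typical of simple and glandular epithelium.

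The tissue was esophageal epithelium from 25 rats (F344, male), 5 per group, and each rat had its own Agilent array read in a single colour (Cy3). The NMBA+Alpha-T group (alpha group below) received NMBA with alpha-tocopherol, the NMBA+Delta-T group (delta group) NMBA with delta-tocopherol, and the NMBA+Gamma enriched-T group (gamma group) NMBA with a tocopherol preparation enriched in the gamma form. The NMBA group had NMBA and a normal diet, and the Control group had the normal diet and no NMBA. NMBA is a nitrosamine that is used to induce esophageal tumours in rats, and the tocopherols are forms of vitamin E that differ in the methyl groups on their ring. The labels state no dose, time, age or tumour status. RNA came from bulk tissue, so fewer cells of a type and less RNA per cell cannot be told apart.

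The arrays lay on 4 slides, which largely followed the groups. Slide 1 held the alpha group and delta rats 1 to 3, slide 2 held delta rats 4 and 5, the gamma group and Control rat 1, slide 3 held NMBA rats 1 to 4 and Control rats 2 to 5, and slide 4 held NMBA rat 5. No tocopherol group shared a slide with an NMBA rat, so slide and treatment cannot be told apart in those comparisons. A fit with slide as a fixed term joins the tocopherol groups to NMBA and to Control only through Control rat 1. The 75th percentile of signal ran from 3088 to 8096 across arrays, and 70.6% to 79.8% of probes were well above background. No spot was saturated (0 spots), the brightest reading 453827 against a saturation value of at least 777545. Levels are given as log2 signal minus the log2 75th percentile of the same array, called the scaled level, and each is compared within 1 probe only. A difference is a difference of group means in log2 units ± the moderated standard error of limma, with Benjamini-Hochberg adjustment over all 12343 genes and a threshold of 0.05.

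The label of esophageal epithelium was met by its keratins, but markers of muscle and fibroblasts were bright too. In the Control rats the mean scaled level of 8 muscle markers ran from 2.97 to 4.10. That of 7 fibroblast markers ran from 2.73 to 3.28, and that of 10 squamous epithelium markers from 2.65 to 3.09. These lists hold different probes, so their levels are not ranked against each other. Krt4, Krt13, Krt14, Krt15, Krt17, Krt5 and Krt1 were well above background on all 25 arrays, whereas Krt19 was on 23 and Krt7 on 19. Krt13 ranked between 17 and 86 by signal among all probes of an array and Krt15 between 16 and 77, and Krt4 and Krt14 stayed within the first 174. These 4 sit at the bright end of the array. Each result is therefore given with the 75th percentile scaling and with quantile normalization, which forces the same distribution of signals on every array.

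Krt4, the type II keratin of suprabasal esophageal cells, passed the test in 2 of the tocopherol groups. Its scaled level was 4.39, 4.20, 4.07, 4.37 and 4.15 in the delta rats, and 4.0, 3.99, 4.46, 4.15 and 3.96 in the gamma rats, against 5.09, 4.95, 5.01, 4.74 and 4.85 in the NMBA rats. Every delta and gamma rat lay below every NMBA rat. Krt4 fell by 0.69 ± 0.15 in the delta group (adjusted p = 0.0283) and fell by 0.81 ± 0.15 in the gamma group (adjusted p = 0.00383), both against NMBA. With quantile normalization the differences were −0.18 ± 0.09 in the delta group and −0.18 ± 0.09 in the gamma group, and neither passed (adjusted p = 0.322 and 0.247). With cyclic loess, which evens out intensity-dependent differences between arrays, they were −0.36 ± 0.10 (adjusted p = 0.0584) and −0.40 ± 0.10 (adjusted p = 0.0194). With slide as a fixed term they were 0.01 ± 0.30 and −0.14 ± 0.28, and neither passed. The alpha rats, at 4.85, 4.51, 4.37, 4.27 and 4.46, overlapped the NMBA rats, and their difference of −0.43 ± 0.15 did not pass (adjusted p = 0.111). The call in the delta group was lost without delta rat 2 or 3 or without NMBA rat 1, 2 or 3, where the difference lay between −0.65 and −0.69 with adjusted p from 0.0527 to 0.0736.

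The RefSeq promoter table held Krt4 and Krt5 among the measured members. The promoters of these 2 type II keratins are shown because both were called against NMBA, Krt4 in the delta and gamma groups and Krt5 in the alpha group. Each sequence runs 5′ to 3′ from 250 bases before to 50 bases after the gene's start on the GRCr8 assembly, Krt4 at chr7:134930664-134930963 and Krt5 at chr7:134730520-134730819, both on the minus strand. Capitals mark matches to the TATA motif, searched as TATAA, to the AP-1 motif, searched as TGANTCA, to the CCAAT box, searched by those letters, and to the GC box, searched as GGGCGG. Each was searched on both strands, and no marked match overlaps another.
Krt4: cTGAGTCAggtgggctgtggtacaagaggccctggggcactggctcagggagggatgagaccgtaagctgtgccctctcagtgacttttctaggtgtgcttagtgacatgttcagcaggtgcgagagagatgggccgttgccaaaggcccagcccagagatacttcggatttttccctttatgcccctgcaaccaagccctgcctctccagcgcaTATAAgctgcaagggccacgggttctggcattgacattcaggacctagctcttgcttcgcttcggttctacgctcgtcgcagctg
Krt5: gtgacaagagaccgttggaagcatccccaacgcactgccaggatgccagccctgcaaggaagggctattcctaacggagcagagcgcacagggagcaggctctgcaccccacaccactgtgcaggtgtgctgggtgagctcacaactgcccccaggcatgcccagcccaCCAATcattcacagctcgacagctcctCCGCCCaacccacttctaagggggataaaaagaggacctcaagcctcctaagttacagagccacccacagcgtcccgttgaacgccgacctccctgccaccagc
Krt4 held the TATA motif from position −35 and the AP-1 motif from position −249, and neither the CCAAT box nor the GC box was found in the window. Krt5 held the CCAAT box from position −81 and the GC box on the opposite strand from position −54, and neither the TATA motif nor the AP-1 motif was found in it. Of 33469 promoters of the same length in the table, 26.2% held the TATA motif, 7.33% the AP-1 motif, 37.5% the CCAAT box and 33.1% the GC box. The matches describe these letters only.

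Krt13, the type I partner of Krt4, had scaled levels of 4.30, 3.89, 5.09, 4.54 and 4.40 in the gamma rats, against 5.33, 5.42, 5.40, 5.00 and 5.12 in the NMBA rats. Gamma rat 3, the dimmest gamma array (75th percentile 3684, the others 5525 to 8096), lay among the NMBA rats. The other 4 gamma rats lay below all of the NMBA rats. The difference was −0.81 ± 0.19 (adjusted p = 0.0109), with −0.36 ± 0.10 under cyclic loess (adjusted p = 0.0243) and −0.10 ± 0.09 under quantile normalization (adjusted p = 0.532). The delta rats, at 4.74, 4.72, 4.32, 4.80 and 4.61, all lay below the NMBA rats, yet their difference of −0.62 ± 0.19 did not pass (adjusted p = 0.0723). In the alpha rats, at 5.08, 4.83, 4.55, 4.5 and 4.85, the difference from NMBA was −0.49 ± 0.19 and did not pass (adjusted p = 0.154). Before scaling, the Krt13 signal lay between 172087 and 226000 on slide 3, between 103914 and 143556 on slide 1 and between 115806 and 139823 on slide 2. The single array of slide 4, NMBA rat 5, read 114747. Before scaling, the signal of Krt13 thus did not overlap between slide 3 and any other slide. The scaled level did overlap. It ran from 5.00 to 5.42 on slide 3 and reached 5.08 on slide 1, 5.09 on slide 2 and 5.12 on slide 4.

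Among the basal keratins, Krt14 followed the pattern of Krt4 and Krt13. Its scaled level was 4.09, 3.79, 4.79, 4.23 and 4.01 in the gamma rats, against 5.02, 5.01, 5.08, 4.69 and 4.79 in the NMBA rats. Gamma rat 3 again reached the NMBA range. Krt14 differed by −0.74 ± 0.17 in the gamma group (adjusted p = 0.00979), by −0.33 ± 0.09 with cyclic loess (adjusted p = 0.0318) and by −0.09 ± 0.09 with quantile normalization (adjusted p = 0.556). The alpha and delta groups differed from NMBA by −0.48 ± 0.17 and −0.55 ± 0.17, which did not pass (adjusted p = 0.114 and 0.0701), although the delta rats, between 4.11 and 4.48, lay below every NMBA rat.

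Krt15, a type I keratin of basal cells, gave opposite signs under the 2 scalings. Its scaled level was 4.44, 4.23, 5.10, 4.64 and 4.47 in the gamma rats, against 5.00, 5.05, 5.12, 4.76 and 5.02 in the NMBA rats, a difference of −0.41 ± 0.17 that did not pass (adjusted p = 0.121). Without gamma rat 3 it was −0.54 ± 0.16 and passed (adjusted p = 0.0304). With quantile normalization every gamma rat lay above every NMBA rat and Krt15 was called higher by 0.27 ± 0.08 (adjusted p = 0.0487). The direction of Krt15 in the gamma group is therefore set by the scaling.

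Krt5, the basal type II partner of Krt14, was the member called in the alpha group. Its scaled level was 1.24, 1.24, 1.47, 1.64 and 1.0 in the alpha rats, against 1.83, 1.78, 2.0, 1.75 and 2.14 in the NMBA rats. All 5 alpha rats lay below all 5 NMBA rats, also with quantile normalization. Krt5 fell by 0.58 ± 0.15 in the alpha group (adjusted p = 0.0331), and with quantile normalization it fell by 0.50 ± 0.14 (adjusted p = 0.046). With cyclic loess it was −0.51 ± 0.15 (adjusted p = 0.0517), and with slide as a fixed term it was −0.56 ± 0.39 (adjusted p = 0.576), and neither passed. The call was also lost without alpha rat 1, 2 or 5 or without NMBA rat 1, 2, 3 or 5, where the difference lay between −0.50 and −0.61 with adjusted p from 0.0553 to 0.0842. In the delta rats, at 1.54, 1.75, 1.82, 1.48 and 1.90, and in the gamma rats, at 1.87, 1.35, 1.85, 1.27 and 1.69, Krt5 differed from NMBA by −0.20 ± 0.15 and −0.29 ± 0.15, which did not pass (adjusted p = 0.49 and 0.219). The signal of Krt5 ranked between 2539 and 4477, well below the 4 bright keratins. Why its difference in the alpha group changed little with quantile normalization was not tested.

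Krt17 differed from NMBA by −0.38 ± 0.12 in the alpha group, −0.31 ± 0.12 in the delta group and −0.25 ± 0.12 in the gamma group, none of which passed (adjusted p = 0.0806, 0.144 and 0.184). With quantile normalization these became −0.21 ± 0.16, −0.03 ± 0.16 and 0.09 ± 0.16. The scaled level of Krt17 stayed within 0.70 log2 units over all 25 rats, the narrowest range of the 9 members.

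**Figure D1:**
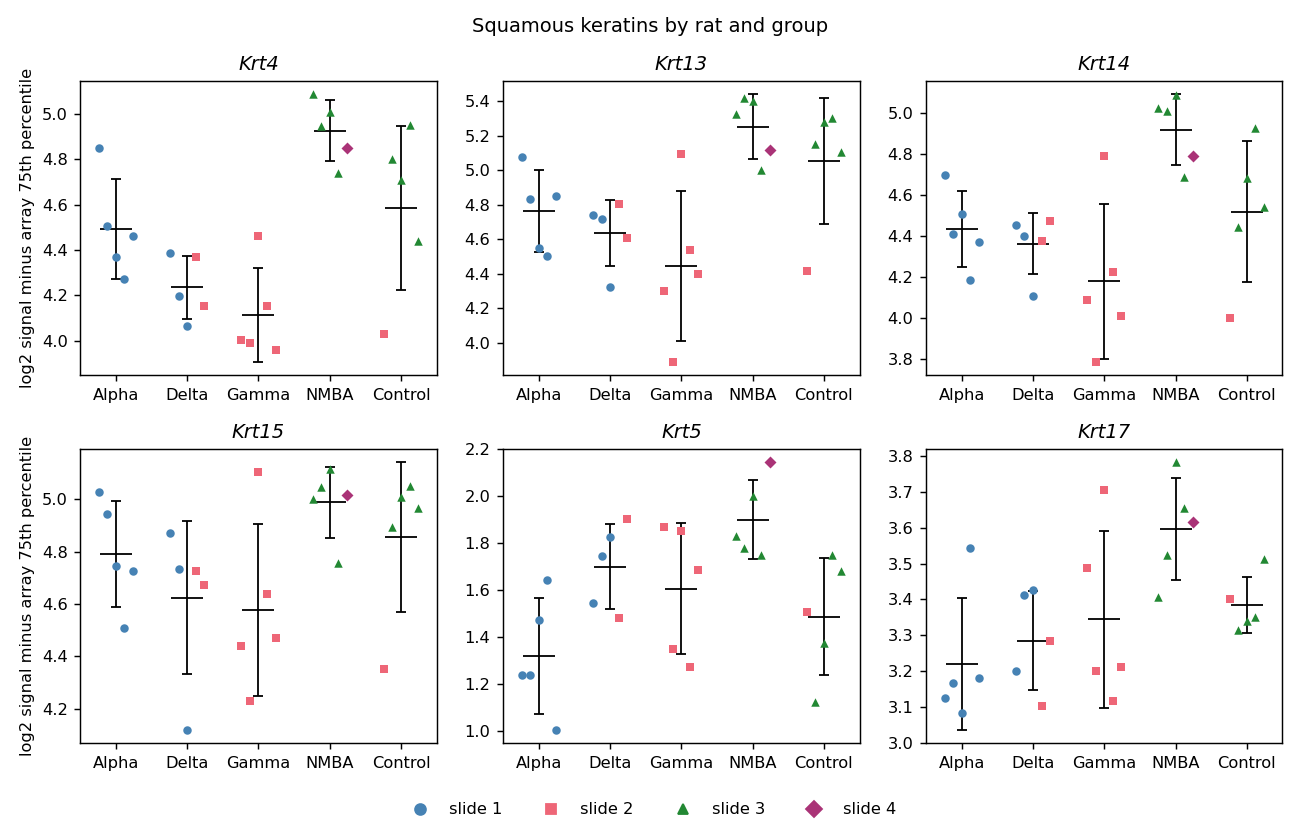
Scaled level (log2 signal minus the array's 75th percentile) of 6 squamous keratins in each of 25 rats, by group (Alpha, Delta and Gamma are the NMBA groups with tocopherol), with colour and shape marking the slide and black bars the mean ± SD of 5 rats. The 4 bright keratins are high on slide 3 in both the NMBA and the Control group, and Control rat 1, on slide 2, lies at 4.03 for Krt4 within the range of the gamma rats.

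Counted over the 9 members, 1 was called lower in the alpha group against NMBA, where 2.45% of all genes were called lower. In the delta group 1 was called lower, where 2.02% of all genes were, and in the gamma group 3 were, where 7.35% of all genes were. With quantile normalization 1 was called lower in the alpha group (2.71% of genes lower), 0 in the delta group (3.55% of genes called in either direction, and 0 members below an unadjusted p of 0.05) and 0 lower but 1 higher in the gamma group (1.9% of genes higher). With slide as a fixed term limma called 0 members in any of the 10 comparisons, and in the gamma group against NMBA it called 0.0081% of all genes. In that fit every value of a tocopherol group against NMBA rests on Control rat 1, the only link between their slides. In the alpha, delta and gamma groups against NMBA no member lay below an unadjusted p of 0.05 with that term (0 of 9), and the standard error of Krt4 in the gamma group was 0.28 with it and 0.15 without it. The 3 comparisons share the NMBA rats.

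**Figure D2:**
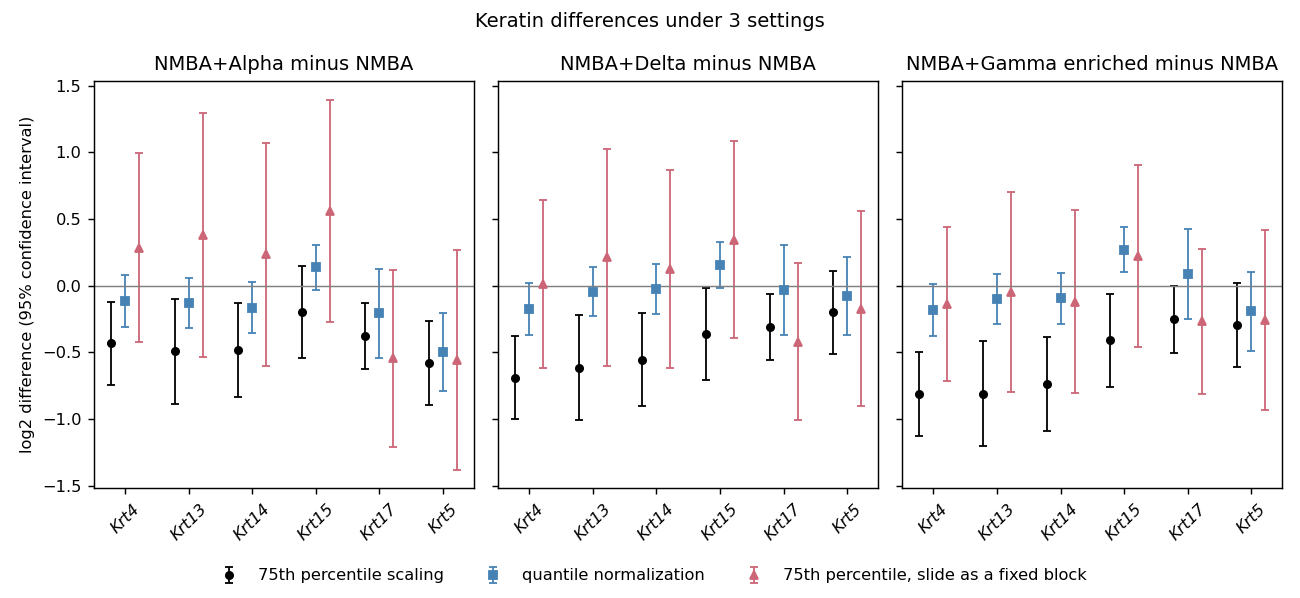
Difference from the NMBA group in log2 units with its 95% confidence interval (y axis) for 6 keratins in the alpha, delta and gamma groups, with 75th percentile scaling, quantile normalization, or slide as a fixed term. In the gamma group Krt4, Krt13 and Krt14 lie between −0.74 and −0.81 with the first scaling and between −0.09 and −0.18 with quantile normalization, while Krt5 in the alpha group lies at −0.58 and −0.50.

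The bright keratins moved with other bright genes. Over the 100 brightest other genes, the median difference from NMBA was −0.34 in the alpha group, −0.53 in the delta group and −0.64 in the gamma group, with 94, 99 and 99 genes below 0. With quantile normalization these medians were −0.05, −0.06 and −0.06. The differences of Krt4, Krt13 and Krt14 in the gamma group, −0.81, −0.81 and −0.74, thus stood beside a median of −0.64 in these bright genes, whose quartiles were −0.78 and −0.52. The median over all genes tested was −0.03, −0.05 and −0.10 in the alpha, delta and gamma groups.

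The scaled level of the bright keratins was set beside the array's own brightness, its log2 75th percentile, over the 25 arrays. That percentile is subtracted in the scaled level, so a negative r arises in part from the scaling itself, and r is given as a description with no p. Pearson's r was −0.52 for Krt4, −0.56 for Krt13, −0.55 for Krt14 and −0.71 for Krt15, with Spearman's rho of −0.56, −0.53, −0.53 and −0.61. Without the 2 arrays farthest from the median brightness r was −0.41, −0.45, −0.45 and −0.64. Within slide 1 r was −0.93, −0.94, −0.81 and −0.88, within slide 2 it was −0.92, −0.97, −0.96 and −0.96, and within slide 3 it was −0.33, −0.54, −0.25 and −0.45, with 8 arrays each. It was negative within each of these slides. The mean scaled level of Krt4 was 4.39 on slide 1, 4.14 on slide 2 and 4.83 on slide 3, and that of Krt13 was 4.70, 4.51 and 5.25. For Krt5 and Krt17 r was 0.08 and 0.10, and for Krt1, Krt7 and Krt19 it was −0.38, −0.17 and −0.13. The values of Krt5 and Krt17 near 0 join slides of opposite sign. Within slides 1, 2 and 3 r was 0.80, −0.39 and −0.003 for Krt5, and 0.75, −0.29 and 0.28 for Krt17. With quantile normalization r was 0.34, 0.09, 0.25 and 0.34 for Krt4, Krt13, Krt14 and Krt15, and 0.72 for Krt17. For Krt5 it was then 0.27 over all arrays, and 0.85, −0.02 and −0.01 within slides 1, 2 and 3. The part of array brightness in the Krt5 difference of the alpha group, all on slide 1, was not tested.

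**Figure D3:**
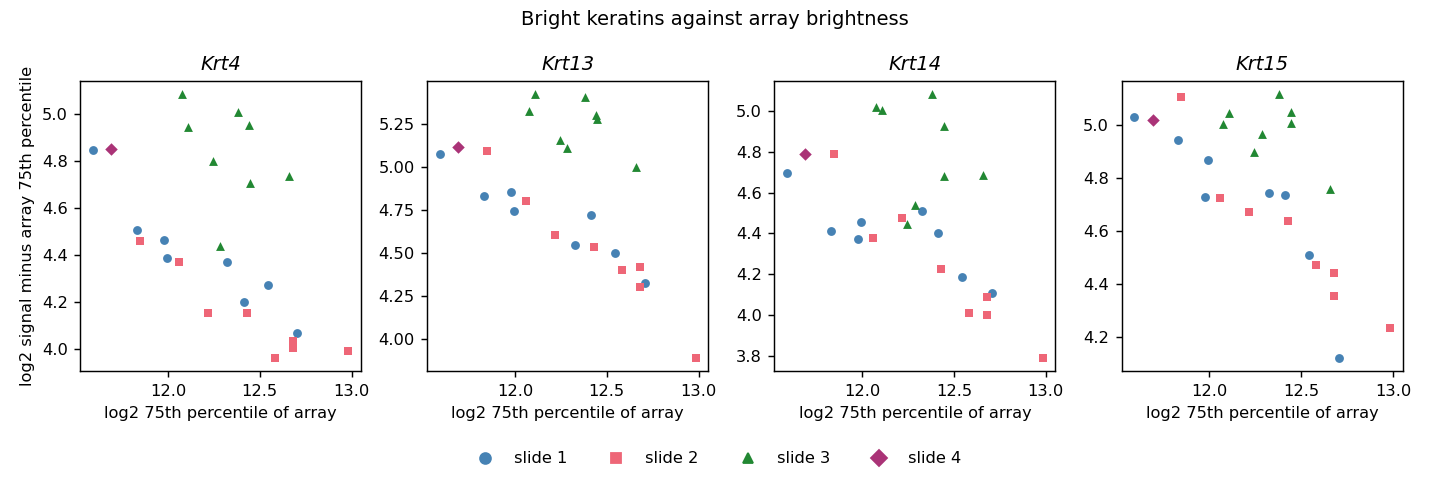
Scaled level of Krt4, Krt13, Krt14 and Krt15 (y axis, log2) against the log2 75th percentile of each of 25 arrays (x axis), with colour and shape marking the slide. Levels run downward with brightness within slides 1 and 2 (r from −0.81 to −0.97), and the mean of the slide 3 arrays is 4.83 for Krt4 and 5.25 for Krt13.

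The members' own pattern over the arrays divided the same way. Krt4 correlated with Krt13 at r = 0.92, Krt13 with Krt14 at 0.93 and Krt13 with Krt15 at 0.92 over 25 arrays, and with quantile normalization these values were 0.08, 0.33 and −0.07. Krt5 correlated with Krt14 at 0.35 and at 0.78 with quantile normalization, and with Krt17 at 0.72 and 0.60. Among the tested genes most like each keratin over the 25 arrays, by Pearson's r, were Eef1g (0.94) and Glrx (0.94) for Krt4, Atp5mc2 (0.97) and Eef1g (0.97) for Krt13, Rpl37a (0.96) and Glrx (0.96) for Krt14, and Rpl8 (0.97), Rpl13 (0.97) and Cox5b (0.96) for Krt15. Genes of ribosomal proteins, a translation factor, a glutaredoxin and mitochondrial enzymes, all bright on these arrays, were thus among the nearest. Krt5 was nearest to Csnk1d (0.79), Adrm1 (0.76) and Src (0.76), and Krt17 to Avpi1 (0.81), Tmem256 (0.79) and Rps3 (0.77). These are descriptions over 25 arrays that share slides and brightness.

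The balance between suprabasal and basal keratins was taken within each array. The mean of Krt4 and Krt13 minus the mean of Krt5, Krt14 and Krt15 was 1.11 ± 0.20 in the alpha group, 0.87 ± 0.14 in the delta group, 0.82 ± 0.10 in the gamma group, 1.15 ± 0.10 in the NMBA group and 1.20 ± 0.22 in the Control group (log2, SD, n = 5 each). The means of the delta and gamma groups were the lowest, and alpha rat 3, at 0.88, lay below every NMBA and Control rat. With quantile normalization the means were 1.11, 0.93, 0.92, 1.05 and 1.13 in the same order of groups. By slide, the means were 1.02 ± 0.20 on slide 1, 0.85 ± 0.13 on slide 2 and 1.23 ± 0.13 on slide 3 (SD, n = 8 each), and 1.0 on the 1 array of slide 4. The balance followed the slide as well as the group, and these are given as values with no test. Krt5 was far dimmer than the 4 bright keratins in the balance, so a shift shared by bright genes also moves the balance. The part of such a shift in these values was not tested.

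Against Control, 0 members were called in the NMBA group by limma, where 1.55% of all genes were called. At an unadjusted p of 0.05 there were 3 members and 1580 of the 12343 genes. Krt5 was 1.83, 1.78, 2.0, 1.75 and 2.14 in the NMBA rats, against 1.51, 1.12, 1.38, 1.75 and 1.68 in the Control rats, a difference of 0.41 ± 0.15 (adjusted p = 0.229). The groups did not overlap, but by a margin far smaller than the spread within either. Krt14 differed by 0.40 ± 0.17 and Krt4 by 0.34 ± 0.15 (adjusted p = 0.325 and 0.346), and Krt13, Krt15 and Krt17 by 0.20 ± 0.19, 0.13 ± 0.17 and 0.21 ± 0.12. Within slide 3 alone, with 4 rats of each group, the differences for Krt5, Krt14, Krt4 and Krt13 were 0.36, 0.30, 0.22 and 0.08, and none passed (adjusted p = 0.431, 0.491, 0.646 and 0.893).

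One Control rat carried much of the Control spread. Control rat 1, the only Control on slide 2, had 4.03 for Krt4, 4.42 for Krt13, 4.0 for Krt14 and 4.35 for Krt15, against 4.44 to 4.95, 5.11 to 5.30, 4.44 to 4.93 and 4.90 to 5.05 in Control rats 2 to 5. It lay outside the range of the other Controls in all 4 keratins and inside that of the gamma rats, with which it shared a slide. Without it, Krt4 and Krt13 in the NMBA group differed from Control by 0.20 ± 0.14 and 0.04 ± 0.18.

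Against Control, the tocopherol groups also gave 0 called members by limma, where 0.818%, 0.194% and 0.632% of all genes were called in the alpha, delta and gamma groups. At an unadjusted p of 0.05 there were 0, 2 and 2 members, and 1687, 1331 and 2273 of the 12343 genes. Krt13 and Krt4 differed from Control in the gamma group by −0.61 ± 0.19 and −0.47 ± 0.15, which did not pass (adjusted p = 0.125 and 0.131). Without Control rat 1 these became −0.77 ± 0.18 and −0.61 ± 0.14 and passed (adjusted p = 0.0125 and 0.0101), and without gamma rat 3 Krt13 also passed at −0.77 ± 0.18 (adjusted p = 0.0496). With all rats and quantile normalization they were −0.10 ± 0.09 and −0.02 ± 0.09. Krt5 differed from Control by −0.17 ± 0.15, 0.21 ± 0.15 and 0.12 ± 0.15 in the alpha, delta and gamma groups, and none passed (adjusted p = 0.681, 0.642 and 0.696).

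The tocopherol groups were compared with each other in 27 tests, 9 members in 3 pairs, with p adjusted over all genes in the 3 pairs together. No member was called (0 of 27), and over all genes 0% were called in the delta against the alpha group, 1.62% in the gamma against the alpha group and 0% in the gamma against the delta group by limma, each pair adjusted alone. At an unadjusted p of 0.05, 572 genes and 2 members lay below the threshold in the first pair, 1806 genes and 1 member in the second, and 503 genes and 1 member in the third. Krt4 differed by −0.38 between gamma and alpha (95% interval −0.69 to −0.07, adjusted p = 0.512), by −0.26 between delta and alpha (−0.57 to 0.06, adjusted p = 0.725) and by −0.12 between gamma and delta (−0.43 to 0.19, adjusted p = 0.881). Krt5 differed by 0.38 between delta and alpha (0.07 to 0.69, adjusted p = 0.51), by 0.29 between gamma and alpha (−0.03 to 0.60, adjusted p = 0.679) and by −0.09 between gamma and delta (−0.41 to 0.22, adjusted p = 0.91). Delta and alpha rats that shared slide 1 gave 0.38 for Krt5 and −0.28 for Krt4, about the same as over all rats. A call of Krt5 in the alpha group and of Krt4 in the others is therefore not a shown difference between the tocopherols.

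Krt1, the type II keratin of keratinized epidermis, ranged over 4.57 log2 units. Its scaled level was 2.04, 3.21, −0.61, 3.16 and 1.56 in the delta rats, −0.37, 1.04, −1.03, 1.79 and −0.61 in the alpha rats, −1.35 to 2.62 in the gamma rats, −0.64 to 1.12 in the NMBA rats and −0.78 to 2.07 in the Control rats. All delta rats but rat 3 were above 1.5, but each group held rats far apart and all groups overlapped. The delta group differed from NMBA by 1.5 ± 0.79, from Control by 1.55 ± 0.79 and from alpha by 1.71 ± 0.79, and none passed (adjusted p = 0.297, 0.493 and 0.616, the last over the 3 pairs). Krt1 changed little with scaling, at 1.51 ± 0.79 against NMBA with quantile normalization. Among the genes most like it were Tenm2 (0.73) and Adh6a (0.73).

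Krt7 and Krt19, the keratins of simple epithelium, varied more between rats than any other member, over 5.90 and 7.73 log2 units. In the NMBA rats Krt19 was −6.78, −2.53, −5.45, −6.08 and −0.59, against −1.09, −6.77, 0.95, −0.09 and 0.54 in the Control rats. Of the Control rats, 4 were high and rat 2 was near the lowest of the study, and the NMBA rats ran across most of the same range. In the alpha rats Krt19 was −0.35, −5.44, −5.64, −3.72 and 0.21, in the delta rats −1.02, −1.81, −0.04, −5.52 and −1.53, and in the gamma rats −1.29, −5.42, −1.40, −0.51 and −5.42. Every group therefore held both high and low rats. The differences between NMBA and Control, −2.99 ± 1.55 for Krt19 and −2.14 ± 1.15 for Krt7, did not pass (adjusted p = 0.428 and 0.449), and within slide 3 they were −3.87 and −2.75 (adjusted p = 0.41 and 0.347). Quantile normalization left them at −3.03 and −2.18. In the NMBA group Krt7 was well above background on 2 of 5 arrays and Krt19 on 4, so the size of these differences is uncertain.

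**Figure D4:**
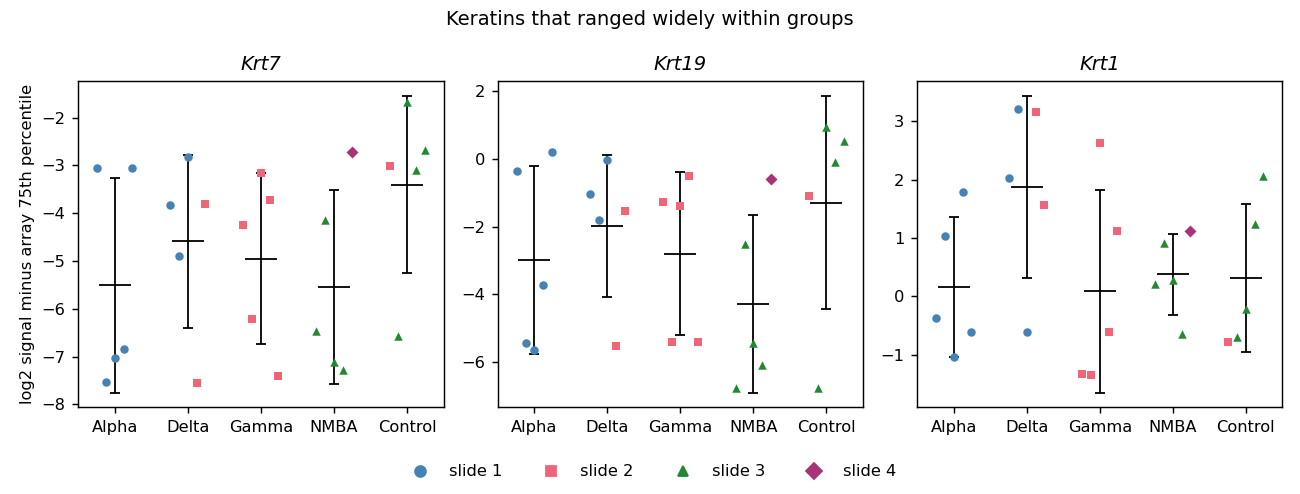
Scaled level (log2 signal minus the array's 75th percentile) of Krt7, Krt19 and Krt1 in each of 25 rats by group (Alpha, Delta and Gamma are the NMBA groups with tocopherol), with colour and shape marking the slide and black bars the mean ± SD of 5 rats. Krt7 and Krt19 are high in some rats and low in others in every group and on slides 1 to 3, and Krt1 spans 4.57 log2 units.

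Krt7 and Krt19 varied together from rat to rat, with r = 0.95 over 25 arrays and 0.96 after each group's mean was removed. The genes most like Krt7 were Tspan1 (0.99), Lrrc26 (0.98) and Cxcl17 (0.97), and those most like Krt19 were Lypd8l2 (0.98), Slc39a4 (0.96) and Prss30 (0.96). Krt8 and Krt18, the common pair of simple epithelium, also varied widely within groups, from −6.18 to −2.91 for Krt8 in the NMBA rats against −6.03 to −1.22 in the Control rats. Krt18 ran from −6.73 to −1.30 in the NMBA rats and from −5.59 to 0.70 in the Control rats. Both were well above background on 2 of 5 NMBA arrays and on all 5 Control arrays, and neither passed between NMBA and Control (adjusted p = 0.373 and 0.381).

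Of the markers of glandular and columnar cells, Tff1 and Tff2 moved closely with Krt7 and Krt19, and Tff3 and Epcam did so less. Of 9 listed markers 4 were tested, and Muc5b, Muc5ac and Muc2 matched no probe, while Gkn1 and Cldn18 were above background on 1 and 4 arrays. Tff1, a gastric-type trefoil peptide, ran from −5.31 to 0.17 and correlated with Krt7 at 0.87 and with Krt19 at 0.80. Tff2, the trefoil peptide of mucous neck cells and glands, ran from −7.27 to 3.62 and correlated at 0.85 and 0.84. Tff3 correlated at 0.44 and 0.48 and Epcam at 0.30 and 0.26. The mean scaled level of the 4 tested markers ran from −3.72 to −1.53 in the NMBA rats and from −3.38 to 0.73 in the Control rats, and in the alpha, delta and gamma rats from −3.87 to −1.08, −3.66 to −0.58 and −3.57 to −1.5. The part of gland or columnar tissue in the levels of Krt7 and Krt19 was not tested.

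**Figure D5:**
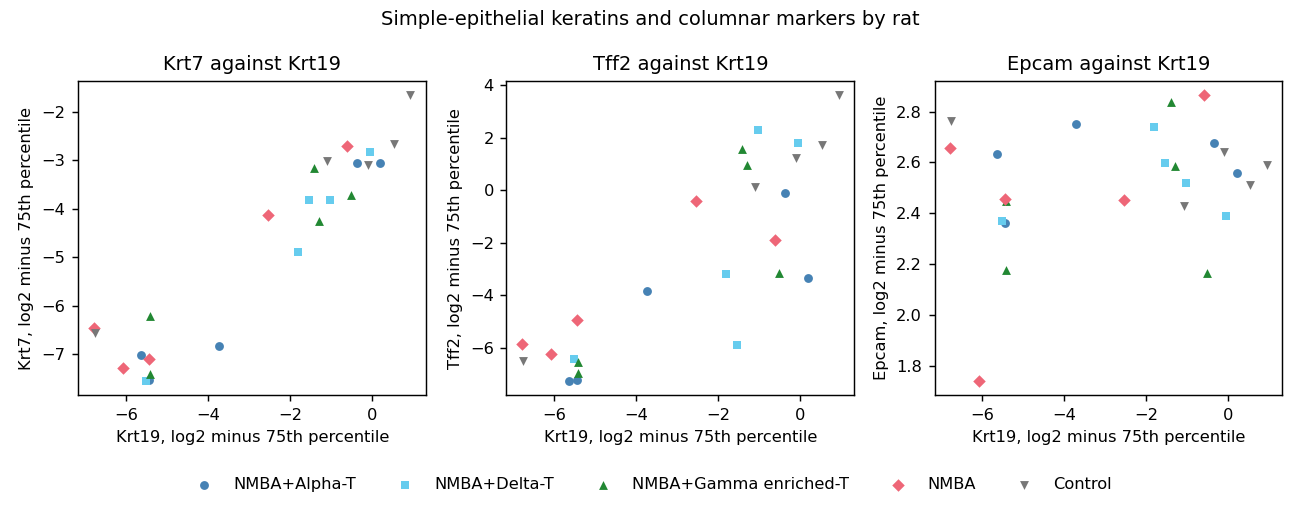
Scaled levels (log2 signal minus the array's 75th percentile) of Krt7, Tff2 and Epcam (y axes) against Krt19 (x axis) in 25 rats, with colour and shape marking the group. Krt7 and Tff2 follow Krt19 across all groups (r = 0.95 and 0.84), and Epcam stays between 1.74 and 2.86.

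Among 30 other keratins tested, Krt82, a type II hair keratin, was measured in every group but Control. Its signal was well above background on 0 of 5 Control arrays and on all 5 arrays of each other group. It was at least 4.67-fold higher in the NMBA group, 3.91-fold in the alpha group, 3.88-fold in the delta group and 4.58-fold in the gamma group than in Control, each a lower bound set by the dimmest signal above background. The scaled level lay between −5.04 and −3.54 in the NMBA rats, against −8.49 to −7.66 in the Control rats, where the probe was below background. Krt82 entered the test through the groups in which it was above background. Between the 3 tocopherol groups and NMBA, Krt82 did not pass (adjusted p = 0.768, 0.726 and 0.972 for alpha, delta and gamma).

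Of the keratins tied to hyperproliferation, Krt16 and Krt6c were tested, and Krt6a matched no probe through the table of names. Krt16 differed between NMBA and Control by 1.16 ± 0.85 and Krt6c by −0.15 ± 0.59, and neither passed (adjusted p = 0.601 and 0.938). Krt31 and Krt73, keratins of hair, were called lower in the alpha group than in NMBA, by −1.47 ± 0.33 and −0.82 ± 0.18 (adjusted p = 0.016 and 0.0153). Krt73 and Krt85 were called lower in the delta group, by −0.72 ± 0.18 and −0.84 ± 0.19 (adjusted p = 0.039 and 0.0297). Krt28 was called lower in the gamma group, by −0.99 ± 0.27 against NMBA and −1.09 ± 0.27 against alpha (adjusted p = 0.0268 and 0.0416). Krt31, Krt73, Krt85 and Krt28 were named from the 30 other keratins because they were called. Of all genes, 2.45%, 2.02% and 7.35% were called lower in the alpha, delta and gamma groups against NMBA. In gamma against alpha 1.62% were called in either direction. Krt73 and Krt85 were dim, with median signals of 115.4 and 101.2 in the delta rats and 185.8 and 165.1 in the NMBA rats. Krt85 was well above background on 4 of 5 delta arrays. These calls of Krt31, Krt73, Krt85 and Krt28 also passed with quantile normalization, at −1.46, −0.80 and −0.62 (Krt73 in alpha and delta), −0.73, −0.93 and −1.07, and none passed with slide as a fixed term.

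Genes that anchor and control keratins mostly did not pass. Of 15 desmosome genes 10 were tested, and Jup, which links desmosomal cadherins to keratin filaments, was called lower than in NMBA by −0.51 ± 0.11 in the alpha group, −0.40 ± 0.11 in the delta group and −0.48 ± 0.11 in the gamma group (adjusted p = 0.0112, 0.0489 and 0.0083). Perp, a desmosomal membrane protein, was called lower in the gamma group by −0.73 ± 0.23 (adjusted p = 0.0495). In the alpha, delta and gamma groups 1, 1 and 2 of the 10 were called lower, where 2.45%, 2.02% and 7.35% of all genes were. With quantile normalization Jup was −0.31, −0.07 and −0.07 and Perp −0.07, and none passed. The median difference of the 10 desmosome genes was 0.03, −0.03 and 0.09 in the alpha, delta and gamma groups, against −0.03, −0.05 and −0.10 over all genes.

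Of 12 basal adhesion genes, which tie basal cells to their basement membrane, 8 were tested and 0 were called by limma in any comparison with either scaling, with 11 of their 80 tests (13.8%) below an unadjusted p of 0.05, against 14.4% of the tests of all genes. Of 20 squamous transcription factors 17 were tested, and Notch1, a receptor that promotes differentiation of squamous cells, was called higher in the NMBA group than in Control by 0.86 ± 0.18 (adjusted p = 0.0106) and higher in the alpha group than in Control by 0.81 ± 0.18 (adjusted p = 0.0306). In each, 1 of the 17 was called, where 1.3% of all genes were called higher in NMBA and 0.818% in either direction in alpha. With quantile normalization Notch1 was 0.78 and 0.82 and passed in both, the delta group against Control also passed at 0.75 (adjusted p = 0.0361), and with slide as a fixed term neither passed (adjusted p = 0.0876 and 0.399).

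Leukocyte markers moved with the tocopherol comparisons. Of 9 tested, 2 were called lower in the alpha group, 3 in the delta group and 4 in the gamma group than in NMBA, and 2 were called higher in NMBA than in Control, where 2.45%, 2.02%, 7.35% and 1.3% of all genes were called in those directions. With quantile normalization the delta group gave 2 and the other counts stayed, and with slide as a fixed term limma called 0 in any comparison. Their mean scaled level ran from −3.13 to −1.87 in the alpha rats, −2.99 to −2.10 in the delta rats and −3.75 to −2.29 in the gamma rats, against −2.14 to −1.12 in the NMBA rats and −2.47 to −1.92 in the Control rats. Of 8 muscle, 7 fibroblast and 5 endothelial markers tested, only Dcn among the fibroblast markers was called, in the gamma group against NMBA at −0.74, and it did not pass with quantile normalization, at −0.35 (adjusted p = 0.292). The part of these cells in the keratin differences was not tested.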

How the data were processed

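Total RNA of 25 esophageal epithelia was hybridised to 1 array each, labelled with Cy3 after linear amplification, per the labels' protocols. The deposited array files hold fluorescence intensity per spot, with background removed array by array and no scaling across arrays, per the file headers (Agilent Feature Extraction 11.5.1.1; the submitters' processing notes name 10.7). The authors' deposited value table is on a log2 scale and followed the log2 processed signal of each array, with the 75th percentile near 0, so it served as an alternative.

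Outlier spots were dropped, spots of a probe were averaged as log2 processed signal, and the array's 75th percentile was subtracted. Of 30367 probes, 18355 matched 1 symbol through their accession and 12012 none. The names come from RefSeq on GRCr8, while the array was designed on rn4. A probe was kept if 5 or more arrays read it well above background, and a gene took its brightest kept probe. Group means over 25 arrays were fitted with limma 3.58.1 in R 4.3.3 (20 residual degrees of freedom), and 10 contrasts were tested two-sided. The fit was tested on simulated data of 12343 genes: for NMBA against Control it recovered 66% of genes changed by 1 log2 unit and 93% of those changed by 2. The simulated noise was independent between genes, with no slide effect and no shift shared by bright genes, and no smaller change was simulated. The recovery therefore does not describe smaller differences or comparisons in which slide follows group. The number of arrays limits the precision, and the 5 rats of a group are separate animals per the labels.

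Alternatives covered quantile normalization, cyclic loess, normexp (offset 50, computed from median signals since the files hold no mean signal), the authors' table, filters, slide, array brightness and left-out rats. Replicate numbers did not pair the rats: correlations of same-numbered deviations ran from −0.58 to 0.53. Named beyond the members were 5 fixed keratins, up to 5 further called keratins and up to 4 called genes of each list per contrast, and the 3 genes most like each member; a few genes that this rule names are not reported here. The members and lists were chosen with earlier results of these data known.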

Additional observations from a re-analysis of the deposited data

Results flagged for a closer look

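In each group of 5 rats, the highest or lowest scaled level was set against Dixon's critical value of 0.71 for its gap to the nearest other rat as a share of the range. Over 45 member and group combinations 6 exceeded it, and chance flags about 1 in 20 groups. Control rat 1 stood apart in Krt13, at 4.42 with the nearest Control at 5.11, and in Krt15, at 4.35 with the nearest at 4.90. It was the only Control on slide 2, and Krt4 and Krt14 were also lowest in it among Controls. Delta rat 3 stood apart in Krt14, at 4.11 with the nearest at 4.38, and in Krt15, at 4.12 with the nearest at 4.67. Alpha rat 4 was high in Krt17, at 3.54 with the nearest at 3.18. Control rat 2 was low in Krt19, at −6.77 with the nearest at −1.09.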

How the results depend on the processing

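Counts of called members held when the filter required all 25 arrays, when all kept probes were averaged and with the authors' table. The filter and the averaging left the called members' own values unchanged, since each has 1 probe, above background on all 25 arrays. The authors' table follows the same processed signal with its 75th percentile near 0. These settings are therefore no independent check of the calls. Against NMBA, the alpha group (1 called) gave 0 with cyclic loess, slide as a fixed term, quantile normalization with that term, the replicate block and a fit of the 2 groups alone, 2 with no filter and with slide as a random block, and 5 with array brightness as a covariate and with array weights. The delta group (1 called) gave 0 with quantile normalization, cyclic loess, slide as a fixed term and both together, 2 with normexp, 3 with slide as a random block and with brightness as a covariate, and 6 with array weights. The gamma group (3 called) gave 4 with array weights, 3 with cyclic loess, 1 with quantile normalization and 0 with slide as a fixed term, alone or with quantile normalization. Where the main count was 0, brightness as a covariate gave 1 in alpha and 1 in gamma against Control, and array weights gave 1 in NMBA, 2 in delta and 4 in gamma against Control and 1 in gamma against alpha. Over all genes, the alternatives called 1 to 5183 in gamma against NMBA (1103 in the main setting), 1 to 2895 in delta (307), 1 to 2141 in alpha (457) and 31 to 2104 in NMBA against Control (191), lowest with slide as a fixed term, or within slide 3 for NMBA against Control, and highest with array weights, or with no filter in alpha. Leaving out 1 rat gave 0 to 2 calls in alpha, 0 to 1 in delta and 3 to 4 in gamma against NMBA, 0 to 2 in gamma against Control and 0 to 0 elsewhere. Fits within 1 slide called 0 members. They were possible only between groups with more than 1 rat each on the same slide. None could compare a tocopherol group with NMBA, where the calls of the main setting lay. Some values changed sign with a call involved: Krt15 in gamma against NMBA, 0.27 with quantile normalization, and Krt4 in delta against NMBA, 0.00986 with slide as a fixed term. Of 1294 alternative values of the members' differences in all, 111 changed sign with no call involved. Brightness correlations under quantile normalization turned to 0.342 for Krt4, 0.0893 for Krt13, 0.254 for Krt14 and 0.344 for Krt15, and reached 0.724 for Krt17. The replicate block left the calls in delta (1) and gamma (3) and lost Krt5 in alpha (−0.58, adjusted p = 0.0505); the numbers do not pair the rats. The suprabasal minus basal balance stayed within 1 SD with quantile normalization and normexp. The quantile fits joined with slide or run within a slide were chosen after seeing the data. The cause of these shifts was not tested beyond each setting's own construction.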
